A study of Mus musculus with 16 samples.

Results

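The transcripts followed here belong to 9 genes of the interferon response and of cytosolic RNA sensing, Ifit1, Ifit2, Isg15, Irf1, Irf3, Irf7, Stat2, Ddx58 and Ifih1, out of the 46983 genes counted. They were chosen by name for their function, and Ifit2 was also selected on its own fall in the cells that received RAM siRNA, so its values under that siRNA are given as a description with no test. RNA was sequenced from mouse embryonic stem cells (ESCs) of the 46C line, which carries GFP at the Sox1 locus, is of strain 129Ola and was grown on gelatin with leukaemia inhibitory factor. Cells were transfected for 48 hr with a siRNA against RAM, encoded by Ramac, or with a non-targeting control siRNA, and were treated with cycloheximide before lysis. Each of the 4 replicates per siRNA gave a library of the lysate (input) and a library of its pooled polysome fractions, 16 libraries in 4 groups of 4. Every group had received a siRNA and the transfection reagent, and no untransfected cells were analysed here, so a response to transfection itself cannot be told apart from the level of unstimulated ESCs. The labels name the RAM siRNA without its sequence, and the cells are 1 line.

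The cap of an mRNA is methylated by RNMT, whose activating partner is RAM, and methylation of the first nucleotides beside it by CMTR1 and CMTR2 further marks an RNA as the cell's own. RNA that lacks these marks can be bound by IFIT1 or detected by the helicases RIG-I (Ddx58) and MDA5 (Ifih1), which signal to the transcription factors IRF3 and IRF7 and so to interferon genes. Secreted interferon acts through STAT2 and IRF9, among other factors, to raise interferon-stimulated genes such as Ifit1, Ifit2 and Isg15. Pluripotent cells are known for a weak form of this response.

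Ramac, the target of the siRNA, was examined first. In input it had 201, 202, 197 and 206 counts in control replicates 1 to 4 and 57, 46, 58 and 56 counts in RAM siRNA replicates. Its log2 fold change was -1.84 (SE 0.11, adjusted p = 7.24e-06, quasi-likelihood test of edgeR, Benjamini-Hochberg adjusted). In polysomes it had 122, 130, 156 and 256 counts in control libraries and 16, 5, 45 and 44 in RAM siRNA libraries. There the log2 fold change was -2.52 (SE 0.55), with an adjusted p of 0.128 in edgeR's test and of 2.36e-05 when the replicate number was added as a block. Libraries held 16647523 to 20147833 counts. All 10 ESC markers examined were abundant enough to be tested, with 5038 to 5417 summed CPM (counts relative to the library size as scaled by TMM) in control input and 4179 to 4799 in RAM siRNA input, where 4 of 10 fell. Of 10 immune cell markers only Cd68, Cd3e and Cd74 were abundant enough, and the other 7, among them Ptprc and Adgre1, never had more than 7 counts in a library. In RAM siRNA input 3 of 6 tested markers of extraembryonic endoderm and 1 of 3 of fibroblasts rose, 1 of 4 of trophoblast fell and 0 of 5 neural markers was called, where 5.94% of all tested genes fell and 6.95% rose. With the replicate block 9 of 10 ESC markers fell, where 19.0% of all tested genes fell and 20.3% rose. That fit called 3 of 6 endoderm markers higher and 1 lower, and 2 of 3 fibroblast markers higher. It called 2 of 4 trophoblast markers lower, and 1 of 5 neural markers in each direction. With so few markers these counts are a description, and their part in the results that follow was not tested.

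The levels of the 9 genes fell into distinct tiers. Per kb of exon, control input libraries had 5.83 ± 0.62 CPM of Irf1, 5.38 ± 0.47 of Ddx58 and 5.32 ± 0.17 of Irf3 (SD, n = 4 throughout). These 3 levels overlapped between libraries, and they lay near the middle of all genes, since between 46.4% and 48.7% of the 12777 tested genes with a known length were lower. Stat2 followed at 2.25 ± 0.13 CPM per kb, below every library of those 3 and above 26.3% of tested genes. Ifit2 had 0.492 ± 0.114 CPM per kb and Isg15 had 0.315 ± 0.263, and their libraries overlapped. Ifit1 had 0.0348 ± 0.0294, Ifih1 had 0.0144 ± 0.0097 and Irf7 had 0.0104 ± 0.0070 CPM per kb, which also overlapped with each other. In CPM, Ifit1 had 0.0924, Ifih1 0.118 and Irf7 0.0393, which rest on sums of 7, 9 and 3 counts over 4 libraries. The limit that a count of 0 would allow over those libraries is 0.0418 CPM. Only Irf1, Irf3, Stat2 and Ddx58 reached 1 CPM in at least 10 of 16 libraries, the study's condition for testing. Ifit2 reached it in the control libraries alone, 8 of 16.

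**Figure D1:**
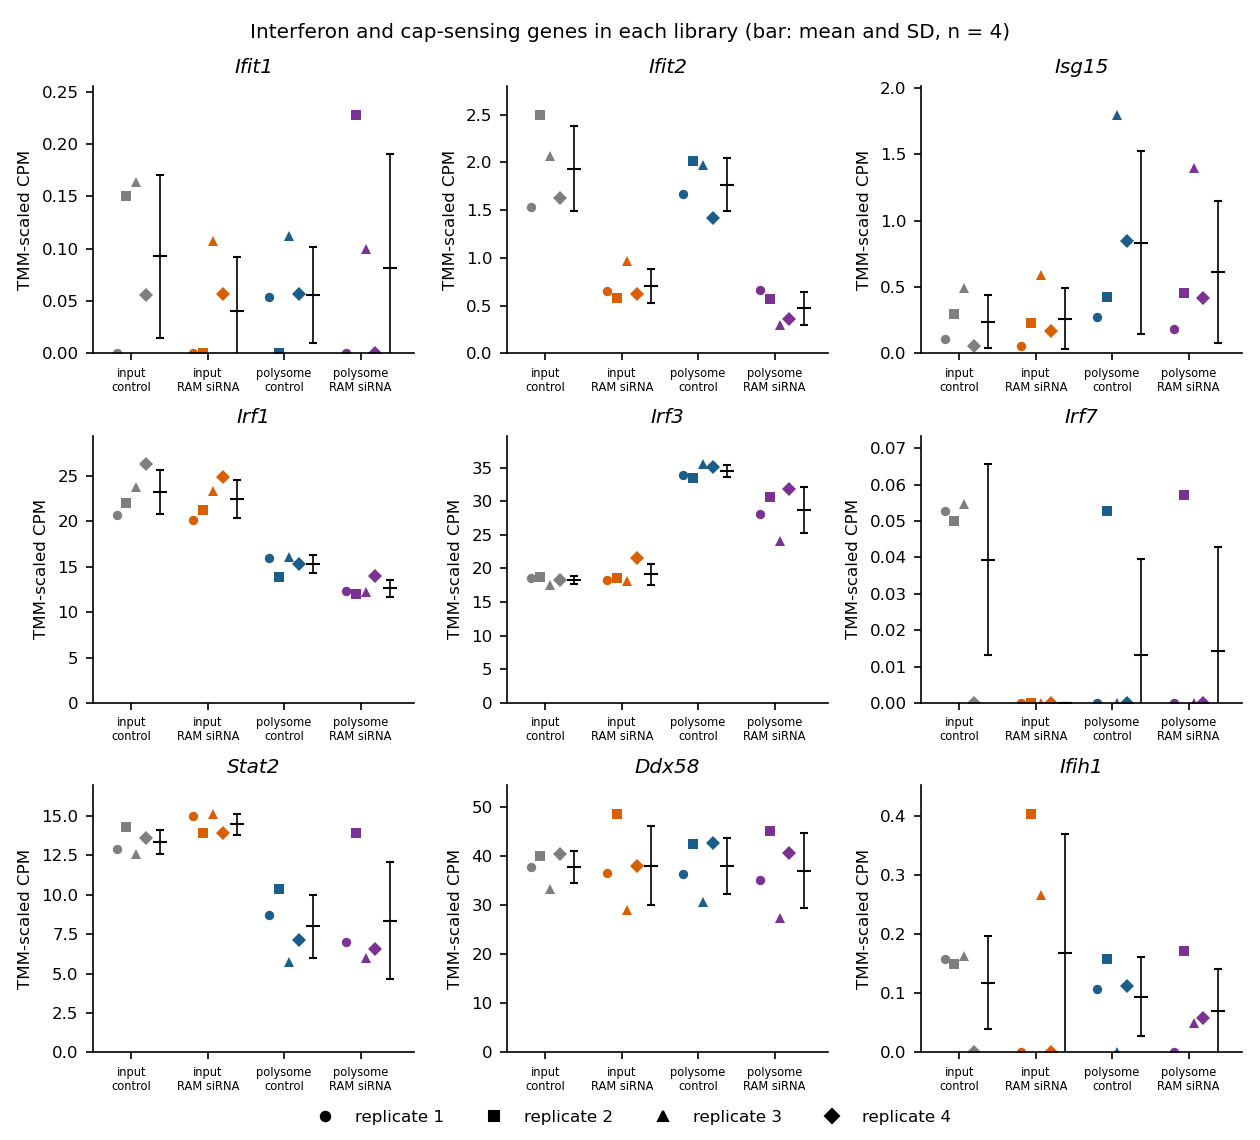
TMM-scaled CPM (vertical axes, each starting at 0) of the 9 genes in every library of the 4 groups, with a marker shape for each replicate and a bar for the mean and SD of 4 libraries, which ends at 0 where the SD exceeds the mean. Ifit2 separates the siRNAs in both fractions, Irf3 and Irf1 separate the fractions, and Ifit1, Irf7 and Ifih1 sit at a few counts per library.

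Ifit2, an interferon-induced protein that binds RNA and can promote cell death, was lower in every RAM siRNA library than in any control library. In input it had 29, 50, 38 and 29 counts in control replicates 1 to 4 and 12, 10, 18 and 11 in RAM siRNA replicates. In polysomes it had 31, 38, 35 and 25 counts in control libraries and 11, 10, 6 and 6 in RAM siRNA libraries. The groups did not overlap in either fraction, which was also so for 8.62% of all 12805 tested genes in the lower direction in input and for 4.38% in polysomes.

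In CPM, Ifit2 went from 1.93 ± 0.45 to 0.703 ± 0.176 in input, a log2 fold change of -1.48 (SE 0.26) or 0.36-fold. In polysomes it went from 1.76 ± 0.28 to 0.471 ± 0.172, a log2 fold change of -1.91 (SE 0.33) or 0.266-fold. Within replicates the log2 ratio of RAM siRNA to control ran from -2.11 to -1.11 in input and from -2.72 to -1.34 in polysomes, so all 4 replicates moved the same way in both. By the protocol, input and polysome RNA are taken from the same lysate and are not independent observations of the fall. In such bulk samples, fewer cells with Ifit2 RNA and less of it per cell cannot be told apart.

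Ifit2 had the most counts of its gene cluster, which lies on chromosome 19 of GRCm38, and its neighbours were too low to show whether they changed with it. Ifit2 spans 34550694 to 34576419 and Ifit1, which encodes a protein that binds RNA with an incompletely methylated cap, spans 34640871 to 34650009. Ifit3 and Ifit3b had 0 counts in all 16 libraries, although these are near-identical copies and reads that match both equally may not have been counted. Ifit1bl1 had 3 counts and Ifit1bl2 had 2 over all libraries, 0 of them in RAM siRNA cells.

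Ifit1 itself had 0, 3, 3 and 1 counts in control input and 0, 0, 2 and 1 in RAM siRNA input. In polysomes it had 1, 0, 2 and 1 counts in control libraries and 0, 4, 2 and 0 in RAM siRNA libraries. Ifit1 was at the edge of detection in every group, and the groups overlapped. Per kb, the level of Ifit2 in control input was 14.1 times that of Ifit1 (95% exact binomial interval 6.68 to 35.7, which covers counting error only).

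The Ifit2 transcript shares short stretches with Ramac, and the stretches are shown because the change of Ifit2 went with that of Ramac and both messages carry the same 7 bases, ACTATCA. These 7 bases were taken up with earlier results of these data known. In each 30-base window the 7 bases are in capitals. The Ramac window is coding and lies at chr7:81768485-81768514. The Ifit2 windows are at chr19:34573360-34573389 (coding), chr19:34575097-34575126 and chr19:34575321-34575350 (both 3′ UTR), all on the plus strand of GRCm38 and read from GENCODE transcripts.
Ramac, coding: gaccagagccctACTATCAacaacagtaca
Ifit2, coding: atgcttgggtctACTATCAcatgggccagt
Ifit2, 3′ UTR, first: gtctatataaccACTATCAcatatatctaa
Ifit2, 3′ UTR, second: tatataaccactACTATCAcatatatataa

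The coding window of Ifit2 and the second window of its 3′ UTR share 9 bases with the Ramac window, CTACTATCA, and the first window of the 3′ UTR shares 7. The longest 3′ UTR of each of the other 8 genes, from 160 bases in Isg15 to 2111 in Ifih1, held 0 copies of the 7 bases, and that of Ifit2 (1945 bases) held 2. Values by the number of copies in the 3′ UTR are given with no test, since the 7 bases were taken from results of these data and no other stretch shared by both transcripts was examined. The median log2 fold change was 0.005 for 11378 genes with 0 copies, -0.117 for 640 genes with 1 copy and -0.229 for 49 genes with 2 or more. Genes called lower were 5.39%, 20% and 22.4% of these, and in polysomes the medians were 0.061, -0.081 and -0.209.

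Ifit2 was selected on its fall, so its own log2 fold changes of -1.48 and -1.91 are not compared with these medians. The 27 tested genes whose 3′ UTR held the 9 shared bases had a median of -0.024 in input. Of these 4 (14.8%) were called lower, against 5.94% of all tested genes. The part of these bases in the fall of Ifit2 was not tested.

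**Figure D2:**
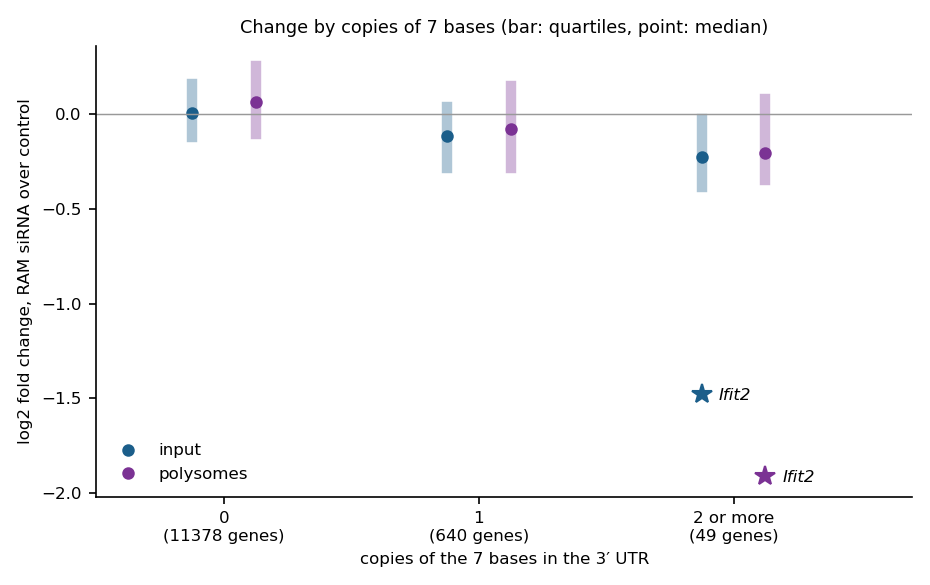
Log2 fold change of RAM siRNA over control (vertical axis) for tested genes with 0, 1 or at least 2 copies of the 7 bases in the 3′ UTR (horizontal axis), in input and in polysomes. Points are medians, bars run from the lower to the upper quartile, and stars give Ifit2, which was selected on its fall, at -1.48 and -1.91. Ifit2 missed the filter and is not among these genes. Its values come from a separate fit with a lower filter and are not compared with the medians. The medians in input are 0.005, -0.117 and -0.229.

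Isg15, a ubiquitin-like modifier and one of the most strongly interferon-induced transcripts, lies on chromosome 4 from 156199424 to 156200818. In input it had 2, 6, 9 and 1 counts in control replicates 1 to 4 and 1, 4, 11 and 3 in RAM siRNA replicates. Polysomes held 5, 8, 32 and 15 counts in control libraries and 3, 8, 28 and 7 in RAM siRNA libraries. Replicate 3 was the highest in all 4 groups, at 206% to 228% of the group mean, and the siRNA groups overlapped in both fractions.

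Isg15, Ifit1, Ifih1 and Ifit2 were fitted in a wider table of genes with at least 10 counts over the 16 libraries. The log2 fold change of Isg15 under RAM siRNA was 0.11 in input (95% interval -1.28 to 1.49, adjusted p = 0.951) and -0.40 in polysomes (-1.80 to 1.00, adjusted p = 0.951), from edgeR's test. For Ifit1 it was -1.07 in input (-3.18 to 1.04) and 0.55 in polysomes (-1.79 to 2.89). For Ifih1 it was 0.43 in input (-1.45 to 2.31) and -0.41 in polysomes (-2.42 to 1.60). Thus 0 of 3 such genes, Ifit2 left out, was called in either comparison, while 7.36% of the genes of that table were called in input and 0.0139% in polysomes. The intervals are wide enough to hold changes of more than 2 on the log2 scale for Ifit1 and Ifih1, so changes of that size were not detectable at this depth.

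The sensors differed from each other by orders of magnitude. Ddx58, which encodes RIG-I, a sensor of RNA ends without a proper cap, had 719, 800, 610 and 723 counts in control input and 673, 842, 545 and 676 in RAM siRNA input. Ifih1, which encodes MDA5, a sensor of long double-stranded RNA, had 3, 3, 3 and 0 counts in control input and 0, 7, 5 and 0 in RAM siRNA input. Per kb, control input held 367 times as much Ddx58 as Ifih1 (95% exact binomial interval 193 to 803), and RAM siRNA input 264 times as much (151 to 512).

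No change of Ddx58 with the siRNA was called. Its level was 37.9 ± 3.3 CPM in control input and 38.1 ± 8.0 in RAM siRNA input, a log2 fold change of 0.00 (95% interval -0.28 to 0.28, adjusted p = 0.988, edgeR). In polysomes 674, 806, 547 and 753 counts in control libraries stood against 584, 789, 552 and 690 in RAM siRNA libraries, a log2 fold change of 0.01 (-0.40 to 0.41, adjusted p = 1). Its sign turned under several scalings, so no direction is given. What did vary was the replicate, since replicate 3 was the lowest of every group, at 74.2% to 87.8% of the group mean. Ifih1 in polysomes had 2, 3, 0 and 2 counts in control libraries and 0, 3, 1 and 1 in RAM siRNA libraries, and its groups overlapped in both fractions.

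The transcription factors that act below these sensors and below the interferon receptor were represented by Irf3, Irf7, Irf1 and Stat2. Irf3, which is activated by phosphorylation after RNA sensing, had 354, 376, 321 and 327 counts in control input and 337, 322, 339 and 382 in RAM siRNA input. In polysomes it had 628, 635, 631 and 619 counts in control libraries and 468, 538, 484 and 538 in RAM siRNA libraries. Irf3 thus overlapped between siRNAs in input, while each of its RAM siRNA polysome libraries was below each control.

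In CPM, Irf3 went from 18.3 ± 0.57 to 19.1 ± 1.60 in input (log2 fold change 0.06, SE 0.08, adjusted p = 0.683, edgeR) and from 34.5 ± 0.93 to 28.7 ± 3.40 in polysomes (-0.22, SE 0.14, adjusted p = 0.762). Only the non-overlap, which 4.38% of tested genes showed in the lower direction and 2.18% in the higher, set the polysome libraries apart, and the test did not call it. Irf3 lies on chromosome 7 from 44997648 to 45002848 and overlaps Bcl2l12 on the opposite strand, which had 82 to 310 counts. The libraries keep the strand, but the strand setting of the counting is not given in the sources used here.

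Irf7, the interferon-induced factor that amplifies the response, had 1, 1, 1 and 0 counts in control input and 0 in all 4 RAM siRNA input libraries. In polysomes it had 0, 1, 0 and 0 counts under either siRNA. A sum of 0 counts over the 4 RAM siRNA input libraries allows a level of up to 0.0428 CPM, and the control sum of 3 counts lies at the same limit, so no fold is given and Irf7 was not fitted. It overlaps Phrf1, with 850 to 1870 counts per library, on the opposite strand.

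Irf1, an interferon-induced factor that also has basal activity, had 392, 440, 436 and 469 counts in control input and 371, 368, 436 and 442 in RAM siRNA input. Its polysome counts were 297, 264, 286 and 270 in control libraries and 204, 211, 245 and 237 in RAM siRNA libraries. In CPM the input libraries overlapped, at 23.2 ± 2.4 and 22.4 ± 2.1 (log2 fold change -0.05, 95% interval -0.26 to 0.16, adjusted p = 0.784, edgeR). In polysomes 15.3 ± 1.0 CPM stood against 12.6 ± 0.92 (-0.23, -0.56 to 0.09, adjusted p = 0.76), with the highest RAM siRNA library above the lowest control.

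Stat2, the subunit particular to type I and type III interferon signalling, had 245, 286, 230 and 243 counts in control input and 275, 241, 282 and 246 in RAM siRNA input. Its input levels were 13.3 ± 0.77 and 14.5 ± 0.65 CPM (log2 fold change 0.11, 95% interval -0.07 to 0.30, adjusted p = 0.43, edgeR). Polysomes held 162, 198, 102 and 126 counts in control libraries and 117, 244, 120 and 111 in RAM siRNA libraries. Replicate 2 was the highest polysome library under both siRNAs, at 130% and 166% of the group means, and the log2 fold change of 0.11 there (-0.55 to 0.76, adjusted p = 0.986) became -0.23 without RAM siRNA replicate 2.

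Over the 4 genes that could be tested in the main table, 0 was called in input, where 5.94% of 12805 genes were called lower and 6.95% higher. In polysomes 0 of 4 was called, where 0.0234% of genes were called lower and 0.00% higher. With the replicate block the shares of all genes were 19.0% lower and 20.3% higher in input and 4.97% lower and 9.68% higher in polysomes, and still 0 of the 4 was called in either. Their unadjusted p-values in edgeR's test were 0.142 or more in polysomes without the block and 0.0616 or more with it. In the higher direction, 9.39% of genes had input groups that did not overlap, and 0 of the 9 did.

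**Figure D3:**
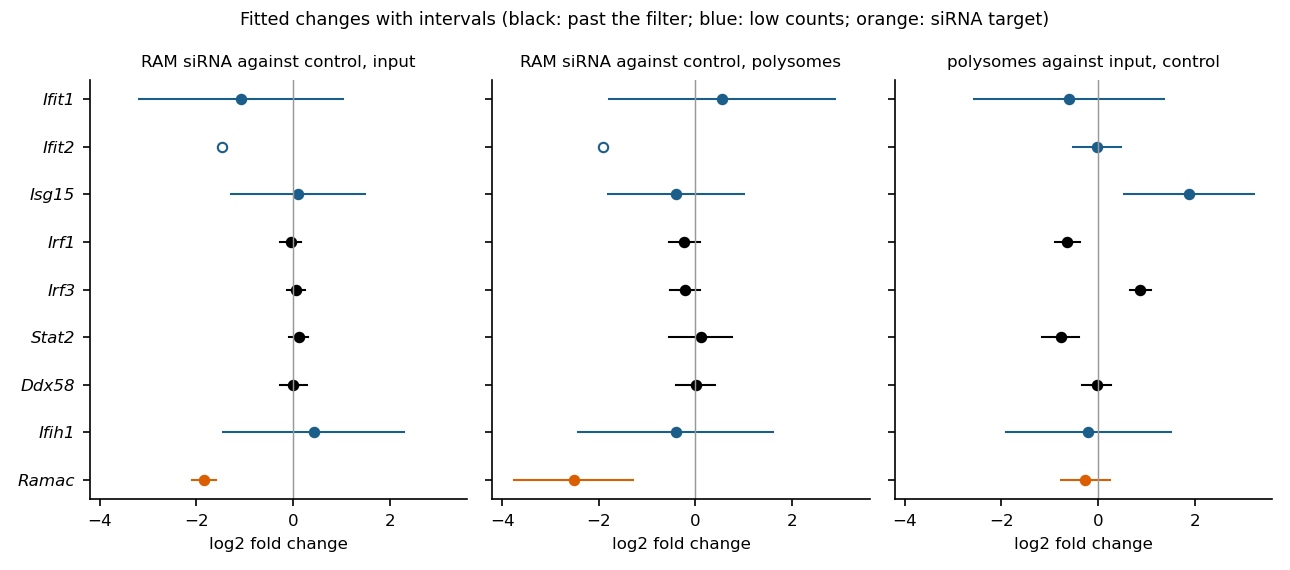
Fitted log2 fold changes (horizontal axes) of 8 of the 9 genes and of Ramac for RAM siRNA against control in input and in polysomes and for polysomes against input in control cells, with 95% intervals. Open points mark Ifit2 where it was selected on its fall and has no interval, and the narrow intervals of Irf1, Irf3 and Stat2 leave 0 only between the fractions.

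Polysomes were next compared with input in control cells, a contrast that played no part in the choice of the genes. The polysome RNA was purified with phenol and chloroform and precipitated with lithium chloride, and the input RNA was purified with Trizol. An enrichment on ribosomes thus cannot be told apart from a difference between these purifications. Irf3 was the most enriched of the 4 genes, at 34.5 ± 0.93 CPM in polysomes against 18.3 ± 0.57 in input, a log2 fold change of 0.88 (SE 0.10, 1.84-fold, adjusted p = 1.77e-05, edgeR). Irf1 was lower in polysomes, with a log2 fold change of -0.63 (SE 0.12, 0.646-fold, adjusted p = 0.000579). Stat2 was lower as well, at -0.77 (SE 0.17, 0.587-fold, adjusted p = 0.00204).

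All 4 replicates moved the same way for these 3 genes, and control polysome and input libraries did not overlap for any of them. So 3 of 4 genes were called, where 34.3% of all tested genes were called lower and 33.1% higher. Groups that did not overlap were also found for 30.4% of genes in the lower direction and 30.7% in the higher. Ddx58 was not called, with a log2 fold change of -0.03 (SE 0.13, 95% interval -0.32 to 0.27, adjusted p = 0.863).

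Among the genes of low count, Ifit2 had a log2 fold change of -0.03 (95% interval -0.52 to 0.47, adjusted p = 0.934) between control polysomes and input. Isg15 was higher in polysomes by 1.88 on the log2 scale (SE 0.63, 3.67-fold, adjusted p = 0.0198), although 54.7% of the genes of the wider table were called in this comparison. Its control libraries overlapped, since 5 and 8 counts in polysome replicates 1 and 2 stood beside 6 and 9 in input replicates 2 and 3. Within each of the 4 replicates Isg15 was higher in polysomes, from 2 to 5, 6 to 8, 9 to 32 and 1 to 15 counts, and the adjusted p with the replicate block was 0.00158. Ifit1 and Ifih1 were not called, at -0.60 (SE 0.93) and -0.20 (SE 0.80).

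Within replicates, the polysome to input ratio of Irf3 was 1.82, 1.78, 2.02 and 1.91 in control cells and 1.53, 1.65, 1.33 and 1.48 in RAM siRNA cells. Every RAM siRNA ratio was thus below every control ratio, though the share of all genes that did so is not given here. The ratio of Irf1 was 0.776, 0.634, 0.676 and 0.582 in control cells and 0.607, 0.567, 0.524 and 0.562 in RAM siRNA cells, lower under RAM siRNA in each of the 4 replicates.

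The ratio of Stat2 was 0.677, 0.731, 0.457 and 0.524 in control cells and 0.47, 1, 0.397 and 0.473 in RAM siRNA cells, where replicate 2 moved against the other three. The ratio of Ifit2 was 1.09, 0.803, 0.949 and 0.871 in control cells and 1.01, 0.988, 0.311 and 0.572 in RAM siRNA cells, and only replicates 3 and 4 of the latter were below every control ratio.

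The change of these ratios under RAM siRNA was tested as the interaction of fraction and siRNA. For Irf3 it was -0.33 on the log2 scale (SE 0.15, unadjusted p = 0.0452, adjusted p = 1, edgeR), and for Irf1 -0.23 (SE 0.16, adjusted p = 1). With the replicate block Irf3 had an unadjusted p of 0.017 and an adjusted p of 0.955 in edgeR's test. Stat2 and Ddx58 had changes of -0.05 (SE 0.32) and -0.05 (SE 0.24) without the block. In this comparison 0 of 4 genes and 0.00% of all tested genes passed in either direction, with 100 genes at an unadjusted p under 0.05 in edgeR, 1 gene called by DESeq2 and 0 by limma-voom. The wider table gave 0.00% as well, and its values for Ifit2 (-0.39, SE 0.40) and Isg15 (-0.44, SE 1.09) are shown without a call.

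**Figure D4:**
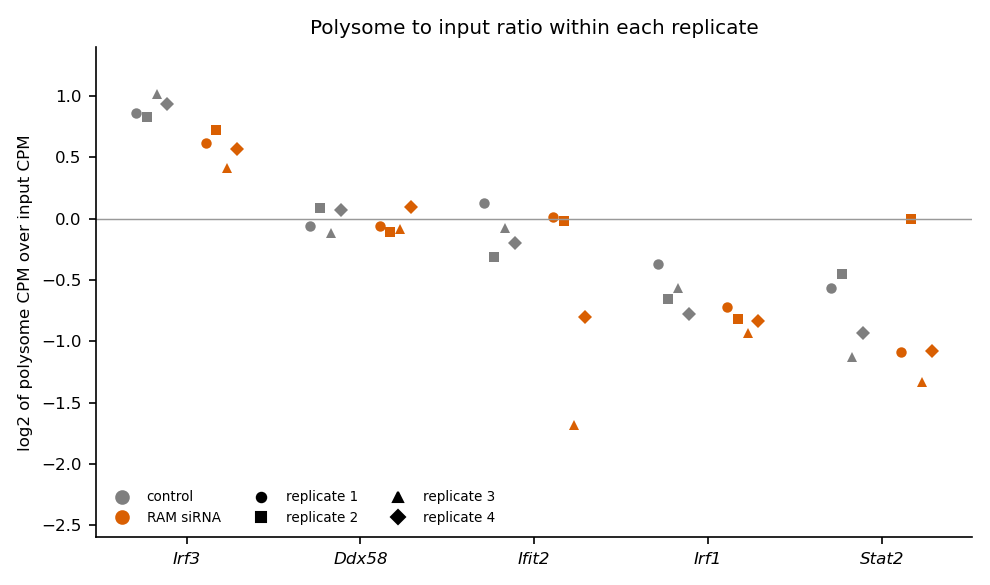
Log2 of the polysome CPM over the input CPM within each replicate (vertical axis) for 5 genes in control and RAM siRNA cells, with a marker shape for each replicate. Irf3 lies above 0 in all 8 ratios and lower in RAM siRNA cells, a change of loading that was not called. Ddx58 lies at 0, and Irf1 lies below 0.

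The promoters of the 9 genes were read to see what these genes of unequal level have in common. RefSeq windows of 300 bases (250 before to 50 after the start, GRCm38.p6) matched all 9 genes with 11 starts. The core of the interferon-stimulated response element, GAAANNGAAA on either strand, was in the windows of Ifit1, Isg15, Stat2, Ddx58 and Ifih1, and in 3.44% of all 32851 windows. The core of the gamma-activated site, TTCNNNGAA, was in 1 window each of Irf1 and Ifit2 and in 8.30% of all windows. The first core was thus found in genes at both ends of the level scale, such as Ddx58 and Ifit1. Windows for 4 genes are shown to compare these, 5′ to 3′ along the gene, with the matched bases in capitals (a match on the other strand reads as the reverse complement). They lie at chr19:34640765-34640833 (Ifit1, plus strand), chr4:156200855-156200916 (Isg15, minus strand), chr4:40239794-40239843 (Ddx58, minus strand) and chr11:53769904-53769952 (Irf1, plus strand).
Ifit1: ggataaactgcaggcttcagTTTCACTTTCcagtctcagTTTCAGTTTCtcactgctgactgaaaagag
Isg15: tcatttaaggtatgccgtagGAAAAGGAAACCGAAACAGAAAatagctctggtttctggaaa
Ddx58: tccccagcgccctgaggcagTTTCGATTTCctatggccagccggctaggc
Irf1, gamma-activated site: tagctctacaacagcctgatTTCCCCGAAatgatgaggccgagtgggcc

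The window of Ifit1 held 2 copies, at -104 and -85 from the start, and that of Isg15 held 3 overlapping copies between -78 and -66. Ddx58 had 1 copy just after its start and Irf1 had its site at -90. The first core was not found in these windows of Ifit2, Irf1, Irf3 and Irf7, which says only that the letters are not there.

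The rest of the pathway was taken from gene lists ordered by role. The counts called in RAM siRNA input stand beside 5.94% of all tested genes that fell and 6.95% that rose. Of 11 interferon ligands, 7, Ifnb1 and every listed Ifna gene among them, had 0 counts in all 16 libraries, and the other 4 had at most 2 counts in a group. Of 18 receptor and JAK-STAT genes 17 were tested, and in RAM siRNA input 2 rose and 0 fell. These were Jak2, a kinase of the interferon gamma receptor, with a log2 fold change of 0.53 (adjusted p = 0.00574, edgeR), and Ifngr2, a subunit of that receptor, at 0.60. The median of this list was -0.095, against 0.001 over all tested genes.

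Among 8 tested interferon regulatory factors and their partners 0 was called in input, with a median of -0.003. Among 15 tested nucleic acid sensors 2 fell and 0 rose, namely Zbp1, a sensor of Z-form nucleic acid, at -1.09 and Oas1a, an activator of RNase L, at -0.72. Of 27 tested adaptors and kinases 3 fell and 2 rose. Those that fell were Rela (the p65 subunit of NF-kappaB) at -0.56, Mavs (the adaptor of RIG-I and MDA5) at -0.39 and Tmem173 (STING) at -0.52. Those that rose were Traf3, a ubiquitin ligase below MAVS, at 0.39 and Tbkbp1, a partner of TBK1, at 0.52.

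The cap list had 14 tested genes. In it Ramac fell, with Eif4e2, a cap-binding repressor of translation, at -0.35 and Cmtr2 at -0.39, and Rnmt and Cmtr1 rose by 0.37 and 0.55. Of 71 interferon-stimulated effectors 37 were tested, of which 9 fell and 5 rose, with a median of -0.127. A further 23 of the 71 never had more than 10 counts in a library, 4 of them 0 throughout.

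Among effectors, the falls with the smallest adjusted p were in the GTPase gene Irgm1 and in PARP family genes. Irgm1 went from 7.30 ± 1.32 to 3.11 ± 0.67 CPM in input, a log2 fold change of -1.23 (SE 0.18, adjusted p = 0.00133, edgeR). Parp12 went from 39.6 ± 3.9 to 24.3 ± 3.9 CPM (-0.71, SE 0.11, adjusted p = 0.00175), Parp10 from 3.20 ± 0.65 to 1.41 ± 0.15 (-1.18) and Parp14 from 26.8 ± 5.6 to 15.9 ± 1.7 (-0.76). Of the 5 rises, the smallest adjusted p-values were those of Tap2, Psmb9 and B2m. Tap2, a subunit of the peptide transporter, went from 1.15 ± 0.11 to 2.11 ± 0.25 CPM (0.88, SE 0.18, adjusted p = 0.0088), the immunoproteasome gene Psmb9 from 0.642 ± 0.248 to 1.59 ± 0.44 (1.30) and B2m from 13.1 ± 2.9 to 19.7 ± 2.1 (0.59), with Bst2 and Cmtr1 beside them. Of other listed genes of antigen processing, Psme2 fell (-0.51, adjusted p = 0.012, edgeR). Psme1 (-0.18), Tap1 (0.36) and Psmb10 (0.22) were not called, and their signs differ. The immune cell marker Cd74 rose by 0.74 in the same libraries, while Ptprc stayed at 7 counts or fewer.

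Counting each gene of the lists a single time and without the 9 genes and Ramac, 110 of 166 were tested in input, of which 16 (14.5%) fell and 10 (9.1%) rose. With the replicate block 30 (27.3%) fell and 15 (13.6%) rose. The corresponding shares of all tested genes are the 5.94% and 6.95%, and with the block 19.0% and 20.3%, given above. The median log2 fold change of the 110 genes was -0.095 in input and -0.099 in polysomes, against 0.001 and 0.056 over all tested genes.

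In polysomes 0 of the 110 was called without the block, and 16 fell and 6 rose with it. Among the smallest p-values without the block were those of Irgm1 at -1.17 (SE 0.23, adjusted p = 0.0936, and 0.00016 with the block) and the kinase gene Ikbkb at -0.65 (0.11 and 0.00134). On the other side stood Ifngr2 at 1.00 (adjusted p = 0.24, and 0.0046 with the block), Jak2 at 0.66 (0.284 and 0.00391) and Tap2 at 0.93 (0.408 and 0.00425).

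**Figure D5:**
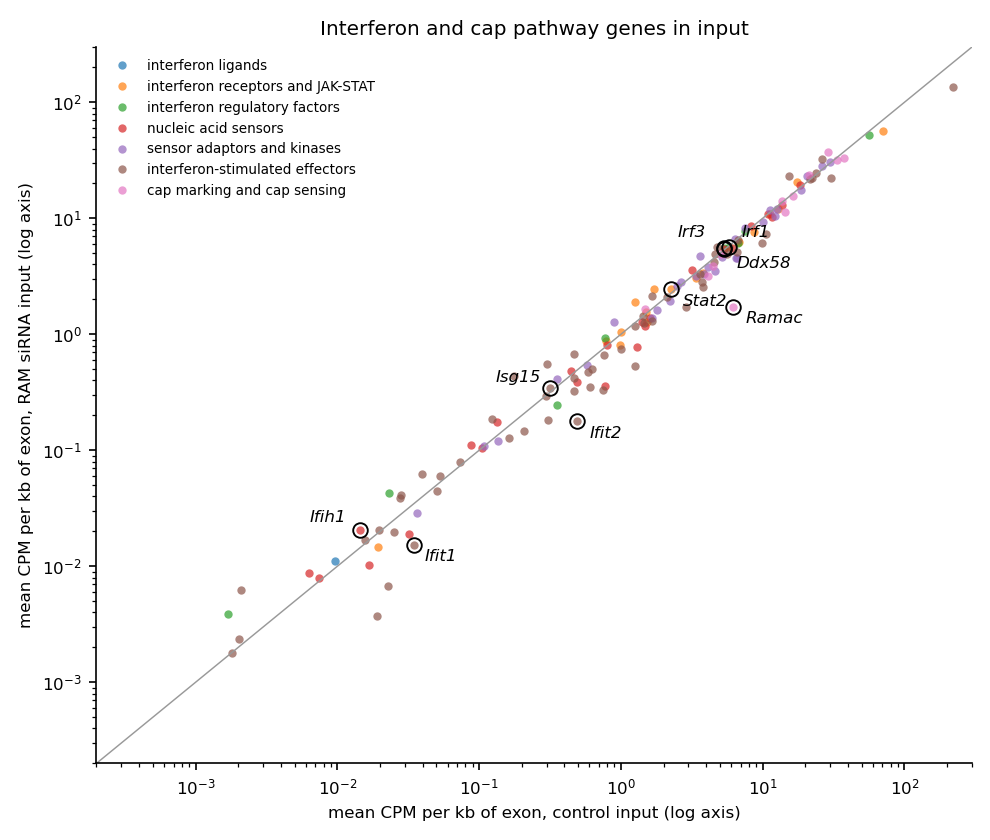
Mean CPM per kb of exon in control input (horizontal log axis) and in RAM siRNA input (vertical log axis) for the 153 of 176 genes of the interferon and cap lists with counts in both groups, coloured by list, with 8 of the 9 genes and Ramac circled. Ramac and Ifit2 lie below the line of equal level, and Irf1, Irf3, Ddx58 and Stat2 lie close to it.

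Between control polysomes and input 35 of the 110 genes (31.8%) were lower and 39 (35.5%) higher, close to the 34.3% and 33.1% of all tested genes, so the genes that follow are named as a description. Of the interferon regulatory factor list, Irf1, Irf9, Irf2bp2 and Irf2bpl were lower, and Irf3 and Irf5 were higher. Of the sensors, Adar, Dhx9, Mb21d1, Eif2ak2 and Zc3hav1 were lower and Tlr3, Oas1a, Oasl1 and Ddx41 were higher. The smallest adjusted p-values belonged to the decapping enzyme gene Dcp2 at -2.20 (7.28e-07, edgeR), Atf2 at -1.20, Rnf125 at -2.08, Traf3 at -1.82 and Azi2 at -1.21 on the lower side. On the higher side they belonged to Psme1 at 1.5 (1.83e-06), the interferon receptor genes Ifnar2 at 1.25 and Ifngr1 at 1.33, the phosphatase gene Ptpn2 at 1.02 and Shisa5 at 1.03. The change of loading under RAM siRNA was called in 0 of the 110, and the smallest p-values were those of Ikbkb at -0.55, Tbkbp1 at -0.64 and Tbk1 at -0.48.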

How the data were processed

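The deposited values are raw counts of reads per Ensembl gene. The authors depleted ribosomal RNA, made stranded libraries, mapped paired reads to GRCm38 (mm10) with STAR 2.5.1b and counted them with htseq-count, without normalization or a filter. The strand setting and annotation release are not given in the sources used here. The table had 46983 genes, 46488 with a symbol, and 0 columns of other samples. The study calls the 4 replicates of each siRNA biological.

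CPM were scaled by TMM, and lengths and transcripts came from GENCODE M21, whose release may differ from that used for counting. The 12805 genes that reached 1 CPM in 10 or more of 16 libraries were fitted with edgeR 4.0.16 (quasi-likelihood, R 4.3.3), within a fraction for the siRNA and over all libraries for the change of loading, with Benjamini-Hochberg adjustment over all genes at 0.05. Genes below this were fitted among 21991 genes with a sum of at least 10 counts. The 9 genes, the gene lists and the 7 bases were chosen with earlier results of these data known. Named were the 9 genes, Ramac and, per comparison and direction, up to 5 listed genes with the smallest adjusted p, or 3 where none passed. Genes of short counts outside this rule (Zbp1, Mavs, Tmem173, Eif4e2, Cmtr2, Rnmt, Cmtr1, Bst2, the markers and the listed factors and sensors between fractions) were named after their values were seen. Ifit2 missed the filter, so genes of like pattern were not named. Some listed genes are not reported here.

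Same-numbered libraries deviated together (mean r of 0.499 between the input groups and 0.777 between the polysome groups, every pair above 0.1), so a replicate block was fitted as well. Alternatives were RLE and library size scaling, no filter or 1 CPM in all 16 libraries, DESeq2 1.42.0, limma-voom 3.58.1, replicates 1 and 2 or 3 and 4 alone, and each library left out. Libraries of a group differed by more than counting noise (chi-square per gene 5.09 or more). The steps were tested on simulated data. The exact binomial intervals and the limits (3 counts over a group) cover counting error only. Intervals of log2 fold changes come from the edgeR fit and also cover the spread between replicates.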

Additional observations from a re-analysis of the deposited data

Results flagged for a closer look

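In 4 of 31 sets of 4 libraries examined, 1 library lay far from the other three by Dixon's ratio, which by chance happens in about 1 in 20 sets. Irf1 had 14 CPM in RAM siRNA polysome replicate 4, against 12 to 12.3 in the others of its group. Irf3 had 21.5 CPM in RAM siRNA input replicate 4, against 18.1 to 18.6. Stat2 had 13.9 CPM in RAM siRNA polysome replicate 2, against 5.99 to 7.03. Ifih1 had 0 CPM in control input replicate 4, against 0.15 to 0.164, which are 3 counts per library.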

How the results depend on the processing

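Of the 4 genes tested, 0 was called under either siRNA comparison or for the change of loading and 3 between fractions, under every alternative run, with the replicate block and with each library left out. The block changed no call of these genes, and for Ifit2 the log2 fold change ran from -1.73 to -1.24 in input and from -2.38 (replicates 3 and 4 alone) to -1.56 (replicates 1 and 2 alone) in polysomes.

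Counts over all genes moved more. With the replicate block 2433 genes were lower and 2595 higher in input, 636 and 1239 in polysomes, and 2 were lower in loading. Replicates 1 and 2 alone gave 1213 lower and 1416 higher in input and 0 lower in polysomes, and replicates 3 and 4 alone gave 0 and 0 in input and 0 lower in polysomes. Without a filter 18 and 21 genes were called in polysomes and 6760 were lower between fractions. With 1 CPM in all libraries 6 and 2 were called in polysomes, and DESeq2 called 144 and 156 there and 1 lower in loading. Leaving out 1 library gave 422 to 1149 lower and 484 to 1357 higher in input, with the fewest without RAM siRNA replicate 1 and the most without RAM siRNA replicate 4, and 0 to 17 lower and 0 to 31 higher in polysomes, the most without RAM siRNA replicate 2. The causes were not tested.

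Signs turned only for uncalled changes. Ddx58 in input was -0.019 with library size scaling, -0.022 without a filter, -0.017 in limma-voom, -0.005 with the block, -0.139 in replicates 3 and 4, and -0.135 to 0.111 with 1 library left out. In polysomes it was -0.005 with RLE scaling, DESeq2 and the stricter filter, -0.055 with library size scaling, -0.041 without a filter, -0.056 in replicates 3 and 4, and -0.088 to 0.103 with 1 library left out. Between fractions it was 0.106 without a filter and -0.095 to 0.077 with 1 library left out, and for loading 0.026, 0.009 with the stricter filter and -0.152 to 0.094. Stat2 ran from -0.234 to 0.256 in polysomes and from -0.414 to 0.100 for loading with 1 library left out, where it was 0.020 without a filter and 0.001 with the stricter one. Irf3 in input was -0.021 in replicates 1 and 2, Irf1 in input ran from -0.101 to 0.014 with 1 library left out, and Ifit2 between fractions from -0.122 to 0.123 likewise. Depth limits Ifit1, Irf7, Ifih1 and Isg15, whose few counts cannot show small changes.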
